A study of Mus musculus with 49 samples.

Results

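The genes in view, which set up pluripotency and the first lineage decision of the mouse embryo, were followed in single late 2-cell embryos: Pou5f1, Sox2, Nanog, Sall4, Prdm14, Carm1, Cdx2, Gata3, Tead4 and Yap1. They were chosen by symbol, and all 10 were found among the 54838 annotated genes of the count tables. Members with enough reads to be tested numbered 9, because Cdx2 had reads in too few embryos. Embryos were F1(C57BL/6JxCBA/H) and were injected as zygotes with an antibody and, 4 h later, with mRNA for Trim21, a ubiquitin ligase that takes the bound protein to degradation (Trim-Away). The 4 groups differed in the antibody: anti-TBP (TBP LOF), mouse IgG (mIgG CONTROL), anti-FOXJ3 (FOXJ3 LOF) and rabbit IgG (rIgG CONTROL), so every CONTROL embryo carried Trim21 mRNA as well. All were collected 48 h after hCG, and 47 of 49 embryos passed the quality thresholds, with 9 TBP LOF, 9 mIgG CONTROL, 16 FOXJ3 LOF and 13 rIgG CONTROL embryos. The FOXJ3 experiment was made in 2 library batches. The TBP embryos came from 3 collections that the labels do not assign to embryos, so embryos of a group may share a collection and the p-values measure the spread between embryos.

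The first lineage decision separates the trophectoderm, which forms the placenta, from the inner cell mass, which forms the embryo proper. In outer cells the Hippo pathway is off, YAP1 enters the nucleus and joins the DNA-binding factor TEAD4, and together they switch on Cdx2 and Gata3. In inner cells YAP1 is kept out of the nucleus and OCT4 (encoded by Pou5f1), SOX2, NANOG and SALL4 hold the pluripotent state. CARM1 methylates arginines of histone H3 and acts with the zinc-finger factor PRDM14 in biasing early blastomeres towards the inner cell mass. The late 2-cell stage comes before this decision, at the time when the embryo's own genome is switched on. TBP is the general factor that binds the TATA box and helps to place RNA polymerase at promoters.

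Promoter sequence from RefSeq was at hand for 6 of the 10 genes, namely Pou5f1, Sox2, Nanog, Cdx2, Gata3 and Yap1, on GRCm38.p6. The 4 shown set the 2 abundant factors Pou5f1 and Yap1 beside Sox2 and Cdx2, which had few reads. Each line gives the 100 bases before the RefSeq start, 5′ to 3′ along the gene's strand. Capitals mark GGGCGG or CCAAT on either strand, the second read as ATTGG on the other strand.
Pou5f1: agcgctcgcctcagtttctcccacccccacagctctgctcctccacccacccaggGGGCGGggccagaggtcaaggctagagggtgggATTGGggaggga
Yap1: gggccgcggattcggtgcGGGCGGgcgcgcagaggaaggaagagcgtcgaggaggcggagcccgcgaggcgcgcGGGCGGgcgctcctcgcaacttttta
Sox2: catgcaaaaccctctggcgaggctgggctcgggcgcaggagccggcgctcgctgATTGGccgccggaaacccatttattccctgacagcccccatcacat
Cdx2: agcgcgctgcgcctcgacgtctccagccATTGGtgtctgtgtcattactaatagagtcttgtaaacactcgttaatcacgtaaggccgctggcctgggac

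The Pou5f1 stretch lies at chr17:35505932-35506031 on the plus strand and that of Sox2 at chr3:34649895-34649994 on the plus strand. That of Yap1 lies at chr9:8004597-8004696 and that of Cdx2 at chr5:147307250-147307349, both on the minus strand. TATAAA, the core of the TATA box, was searched on both strands in the 250 bases before the start and was in none of the 6 genes, against 12.4% of all 32851 promoters of the table. On the sense strand between 40 and 20 bases before the start it was in 1.87% of all promoters and again in none of the 6. With shares this low, none among 6 genes is no result about them. Sequence of Tead4, Prdm14, Sall4 and Carm1 was not at hand and was not searched. GGGCGG, a GC box, was in the 250 bases of Pou5f1, Yap1, Sox2 and Gata3, 4 of 6 genes, against 32.7% of all promoters. CCAAT was in Pou5f1, Sox2 and Cdx2, 3 of 6 genes, against 33.8%. The motifs do not overlap one another in these stretches. The RefSeq start of Sox2 lies before the start of the gene in the annotation, and Pou5f1 and Nanog have more than 1 RefSeq start, all of which were searched. The 6 genes had 8 starts, and a gene was counted if any of its starts held the motif. The shares over all promoters count each promoter, so the 2 are not like for like.

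Reads of transcript 5′ ends were counted, and a library held a median of 1706256 counted reads in TBP LOF, 1551711 in mIgG CONTROL, 2261077 in FOXJ3 LOF and 2183817 in rIgG CONTROL, with 1103569 to 5434808 over all 47. ERCC spike-in RNA, carried by the lysis buffer that the embryos of an experiment shared, took 4.29% ± 1.19 of reads in TBP LOF and 2.76% ± 0.372 in mIgG CONTROL (SD, n = 9 each). All 10 markers of the 2-cell stage were detected in each of the 4 groups. Of 9 markers of cumulus and granulosa cells, 5 had reads in TBP LOF and 5 in mIgG CONTROL. Has2, Inhbb and Fshr had none in either group, and Tnfaip6 had the most, 97 reads over the TBP experiment. Summed markers of cumulus and granulosa cells stayed at or below 25.8 rpm, counted reads scaled to a common library total, in every embryo of that experiment. Tead4 and Prdm14 had means of 14.2 and 10.6 rpm in mIgG CONTROL, so this level does not show absence of such transcripts. The summed 2-cell markers ranged from 440 to 1195 rpm in TBP LOF and from 149.6 to 612 in mIgG CONTROL. The summed oocyte markers ranged from 1876 to 3434 and from 786 to 2354 rpm in the same groups. In TBP LOF, 2 of 10 markers of the 2-cell stage rose under spike-in scaling, Usp17lc and Tcstv3 (6 of 10 under TMM scaling, which sets the typical transcript equal), and 1 of 9 oocyte markers fell, Zp3 (1 lower and 6 higher under TMM). Of 4 cumulus and granulosa markers tested, Tnfaip6 fell (none lower and 1 higher under TMM, Foxl2), and no tested marker of sperm or blood passed. Hba-a1, a blood marker, had 442 reads in the TBP experiment, and summed blood markers reached 39.3 rpm in a TBP LOF embryo. Over all features, 1.34% were called higher and 29.7% lower under spike-in scaling, and 12.8% and 12.7% under TMM. The part of these lists in the results below was not tested. An embryo was sequenced whole, so fewer cells with a transcript and less RNA per cell were not measured apart.

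Tbp and Foxj3, the genes of the targeted proteins, were read first. Tbp had 6.59, 83.3 and 151 spike-in-scaled reads in TBP LOF (lowest, median and highest embryo) and 195.5, 279.5 and 672 in mIgG CONTROL. The groups did not overlap, and Tbp was 4.42-fold lower in TBP LOF (log2 fold change -2.14, SE 0.37, adjusted p = 5.26e-06, edgeR quasi-likelihood test with Benjamini-Hochberg adjustment). Foxj3 had 229.6, 289.6 and 466.1 TMM-scaled reads in FOXJ3 LOF and 123.5, 244.9 and 333 in rIgG CONTROL, with overlapping groups (log2 fold change 0.28, SE 0.13, edgeR adjusted p = 0.861). Trim-Away acts on protein, so neither transcript level checks the depletion itself.

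The level of the 10 factors in CONTROL embryos spanned from abundant to barely detected. In rpm per kilobase of exon, Pou5f1 led with 27.0 ± 19.98, followed by Yap1 with 15.3 ± 2.49 and Sall4 with 11.4 ± 3.89 (SD, n = 22 CONTROL embryos of both experiments). Pou5f1 was above Yap1 in 15 of 22 embryos, so these neighbours were not apart beyond their spread, whereas Yap1 was above Sall4 in 20 of 22. On this length-scaled measure the lead of Pou5f1 came from the FOXJ3 experiment, with 35.1 ± 22.6 in rIgG CONTROL (n = 13) and 15.4 ± 5.04 in mIgG CONTROL (n = 9). Yap1 had 15.5 ± 1.97 and 15.1 ± 3.22 rpm per kilobase in the same groups. Prdm14 with 4.87 ± 4.09 was below Sall4 in 18 of 22 embryos and did not separate from Tead4 with 3.43 ± 2.00, being the higher in 12 of 22. Carm1 followed with 1.10 ± 0.423, below Tead4 in 19 of 22 embryos. Gata3 with 0.496 ± 0.507, Sox2 with 0.494 ± 0.814, Nanog with 0.191 ± 0.221 and Cdx2 with 0.0888 ± 0.247 rpm per kilobase were each within the spread of the next, and in these 4 genes the SD exceeded the mean.

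**Figure D1:**
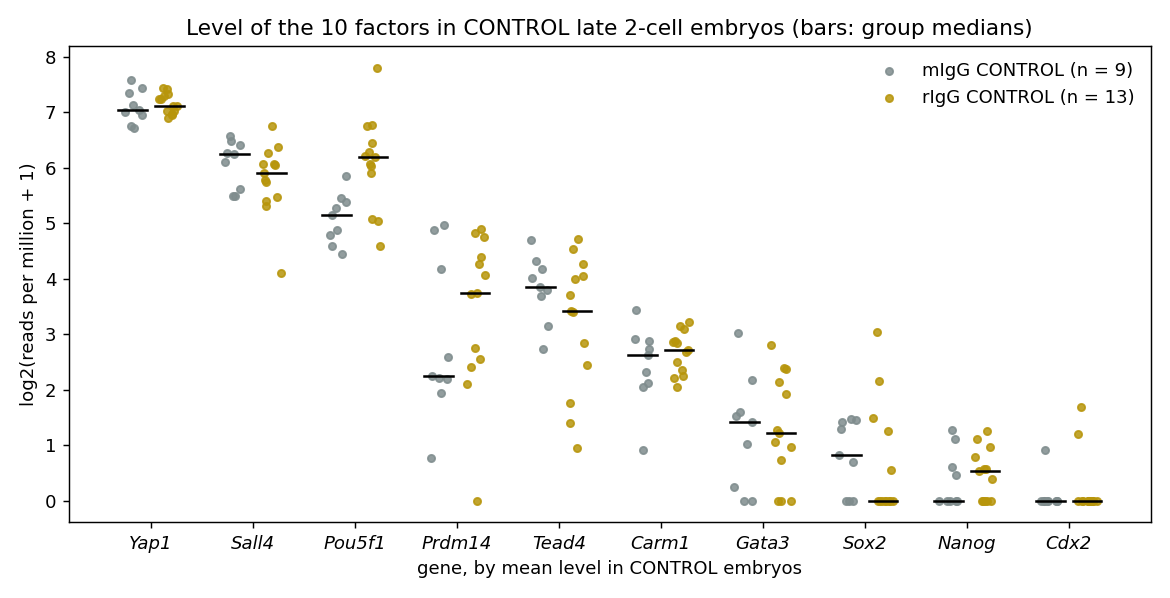
Level of each factor in CONTROL embryos on the scale of log2(rpm + 1), not scaled to length, with 1 point per embryo and bars at the group medians, for 9 mIgG CONTROL and 13 rIgG CONTROL embryos. Sox2, Nanog and Cdx2 lay at or near 0 in most embryos.

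Because only 5′ ends were counted, a longer transcript need not give more reads, so levels are also given in rpm without length. On that scale the order changed, and Yap1 led with 142 ± 23.0 rpm, before Sall4 with 63.2 ± 21.5 and Pou5f1 with 60.8 ± 44.9 (SD, n = 22). The lead of Pou5f1 thus held only after division by exon length. Prdm14 had 12.5 ± 10.5, Tead4 12.3 ± 7.18 and Carm1 5.34 ± 2.05 rpm. The experiments differed in Pou5f1, with 34.6 rpm in mIgG and 78.8 in rIgG CONTROL, while Sall4 had 69.2 and 59.1 rpm. Gata3 had 1.98 ± 2.02, Sox2 1.02 ± 1.67, Nanog 0.427 ± 0.495 and Cdx2 0.201 ± 0.558 rpm. The union of exons was 9257 bases for Yap1, 5536 for Sall4 and 2248 for Pou5f1.

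The embryos of 1 group differed from each other far more for some factors than for others. In rIgG CONTROL embryos the coefficient of variation of the level in rpm was 12.7% for Yap1, where counting error alone gives 5.78%. For Pou5f1 in the same embryos it was 64.4%, against 7.77% from counting, and the highest embryo was 9.60-fold above the lowest. Without the highest, embryo 3 of batch 1, these became 41.1% and 4.65-fold. In TMM-scaled reads the spread of Pou5f1 was 167 ± 170 in batch 1 (n = 7) and 157 ± 39.5 in batch 2 (n = 6). For Tead4 it was 72.2% against 20.5% from counting, and for Prdm14 71.4% against 18.98%. Carm1 had 30.2% against 29.0%, so its spread in these embryos was about that of counting. Pou5f1 was less variable in mIgG CONTROL embryos, with 32.7%, and Prdm14 more so, with 109.8%.

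The comparison of TBP LOF with mIgG CONTROL asked which of these transcripts changed after depletion of TBP, at the time of genome activation. The authors reported delayed development after TBP depletion, and the part of a delay in the values below was not tested. Tead4, the DNA-binding partner of YAP1, and Prdm14, the partner of CARM1, fell. Pou5f1, Sall4, Yap1 and Carm1, each with reads in all 18 embryos, did not pass the test, nor did Sox2, Nanog and Gata3, which had few reads. The count of members that fell was 2 of 9 tested, and none rose. Over all 19356 genes and TE families tested, 29.7% were called lower and 1.34% higher, so the members' share was near this background and is no result about the set. Their median log2 fold change was -0.51, beside -0.70 over all genes tested.

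**Figure D2:**
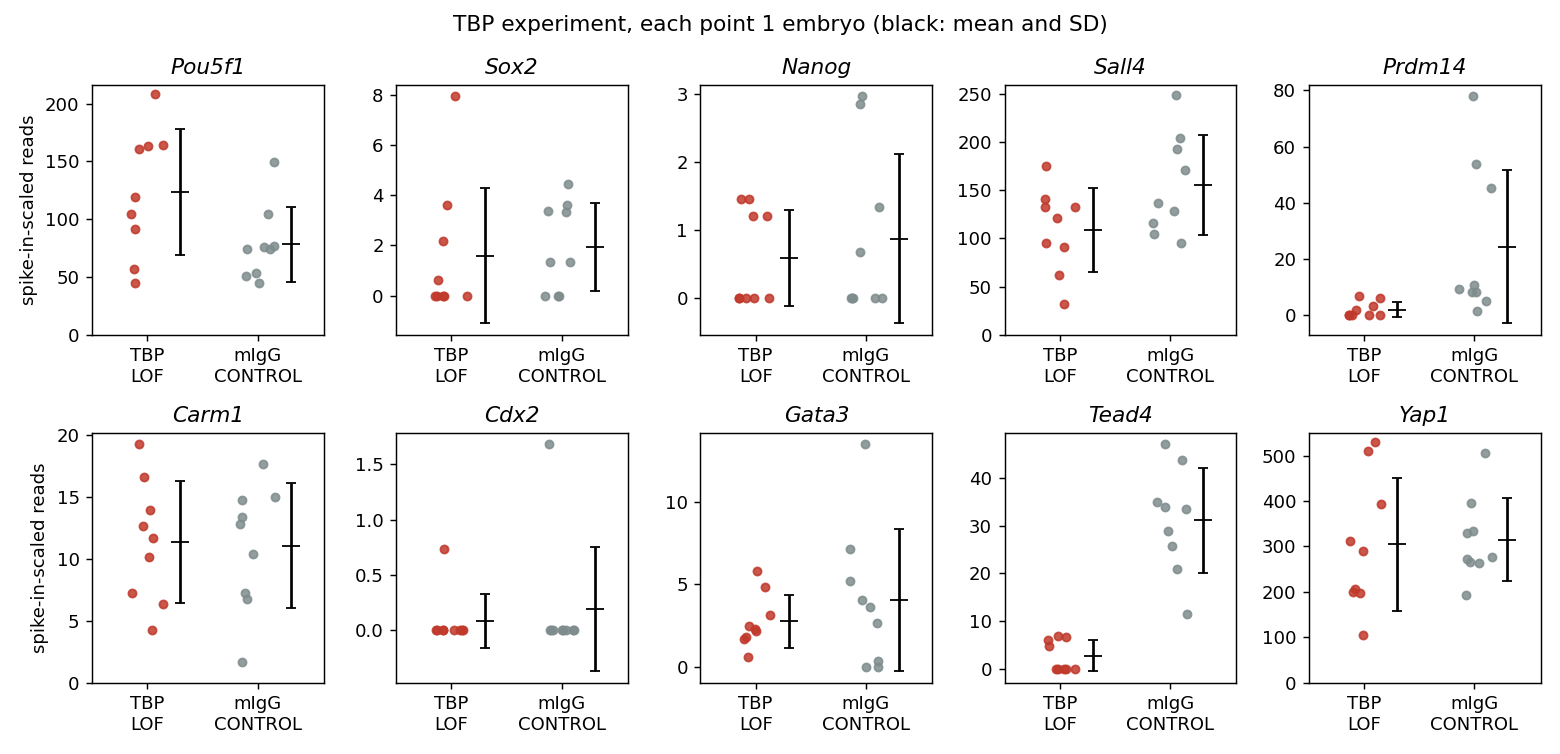
Spike-in-scaled reads of the 10 factors in each of 9 TBP LOF and 9 mIgG CONTROL embryos (points), with mean and SD in black, on a linear axis of its own for each gene. In Tead4 the groups do not overlap, the highest TBP LOF embryo having 6.76 and the lowest CONTROL embryo 11.4 scaled reads.

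Tead4, at chr6:128224288-128300823 on the minus strand, had 0, 0 and 6.76 spike-in-scaled reads in TBP LOF (lowest, median and highest of 9 embryos) and 11.4, 33.6 and 47.2 in mIgG CONTROL. No TBP LOF embryo reached the lowest CONTROL embryo, and 5 of 9 had no read of Tead4 at all, whereas 9 of 9 CONTROL embryos had between 8 and 100 reads. Tead4 fell by 3.28 on the log2 scale (SE 0.53, edgeR adjusted p = 2.22e-06), from 31.1 ± 11.04 to 2.696 ± 3.24 scaled reads. It stayed past the threshold in all 26 alternative fits, with log2 fold changes from -4.15 to -2.16.

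Prdm14, at chr1:13113457-13127163 on the minus strand, had 0, 0 and 6.76 spike-in-scaled reads in TBP LOF and 1.43, 9.40 and 77.9 in mIgG CONTROL. The groups overlapped through CONTROL embryos with few reads, but every TBP LOF embryo lay below the CONTROL median, and 5 of 9 had no read. CONTROL embryos were themselves uneven, with 3 at 45.1 scaled reads or more and 6 at 10.8 or less. Prdm14 fell by 3.56 on the log2 scale (SE 0.67, edgeR adjusted p = 2.79e-05), and was called in all 25 alternative fits that tested it. In TBP LOF, 2 embryos had reads of both Tead4 and Prdm14, and 3 had reads of neither, while all 9 mIgG CONTROL embryos had reads of both.

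Pou5f1, at chr17:35506018-35510772 on the plus strand, had 44.8, 119.4 and 208 spike-in-scaled reads in TBP LOF and 45.1, 74.5 and 149 in mIgG CONTROL. The groups overlapped over most of their range, although 7 of 9 TBP LOF embryos were above the CONTROL median and 4 were above the highest CONTROL embryo. The log2 fold change was 0.65 (SE 0.31, edgeR adjusted p = 0.112), with an approximate 95% interval from 0.035 to 1.27. Sall4, a zinc-finger factor that sustains Pou5f1 expression in stem cells, had 32.1, 121 and 175 scaled reads in TBP LOF and 95.7, 136 and 248 in mIgG CONTROL. Its groups overlapped, with 4 of 9 TBP LOF embryos below the lowest CONTROL embryo (log2 fold change -0.51, SE 0.30, edgeR adjusted p = 0.208). Both genes overlap a transcript on the opposite strand, Gm19553 with 282 reads over all embryos for Pou5f1 and Gm14261 with 1754 for Sall4, and so do Carm1 (Yipf2, 318 reads) and Yap1 (Gm20416, 280 reads). Sox2 lies within Sox2ot on the same strand, which had 43 reads. The sources used here do not say whether counting used strand, so reads of such partners cannot be told apart.

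Yap1, the Hippo effector that binds TEAD4, had 104, 291 and 529 spike-in-scaled reads in TBP LOF and 192, 276 and 505 in mIgG CONTROL. The TBP LOF embryos lay on both sides of the CONTROL embryos, with 4 below and 5 above the CONTROL median (log2 fold change -0.05, SE 0.30, edgeR adjusted p = 0.925). The approximate 95% interval from -0.63 to 0.53 leaves room for moderate changes in either direction. Carm1, the arginine methyltransferase, had 4.29, 11.7 and 19.3 scaled reads in TBP LOF and 1.68, 12.8 and 17.6 in mIgG CONTROL, with groups that overlapped almost completely. Its log2 fold change was 0.0020 (SE 0.55, edgeR adjusted p = 0.998), and with a mean of about 11.4 scaled reads in TBP LOF the interval from -1.07 to 1.07 is wide.

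Sox2, Nanog, Gata3 and Cdx2 had too few reads to place a moderate change. Gata3, a trophectoderm factor downstream of TEAD4, had 0.614, 2.30 and 5.81 spike-in-scaled reads in TBP LOF and 0, 3.61 and 13.5 in mIgG CONTROL (log2 fold change -0.57, SE 0.75, edgeR adjusted p = 0.626). Sox2, the partner of OCT4 on DNA, had reads in 4 of 9 TBP LOF and 6 of 9 mIgG CONTROL embryos, with at most 6 reads (log2 fold change -0.43, SE 0.96, edgeR adjusted p = 0.793). Without TBP LOF embryo 8, which held the most scaled reads of Sox2, the value was -1.27 (edgeR adjusted p = 0.377), and leaving out each embryo in turn gave -1.27 to -0.15. Nanog, a homeodomain factor of the later epiblast, had reads in 4 of 9 embryos of each group and 9 reads in all in each (log2 fold change -0.57, SE 0.97, edgeR adjusted p = 0.715, ranging from -0.83 to -0.092 when single embryos were omitted). Cdx2, the trophectoderm homeobox factor, had 1 read in 1 TBP LOF embryo and 1 read in 1 mIgG CONTROL embryo and was not tested. The approximate 95% intervals ran from -2.04 to 0.89 for Gata3, from -2.30 to 1.45 for Sox2 and from -2.46 to 1.32 for Nanog on the log2 scale, so changes within them were not placed at this depth.

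How the embryos are put on a common scale decides some of these calls and not others. Spike-in scaling compares amounts per embryo, while TMM scaling sets the typical transcript equal between groups, and under TMM the median over genes moved from -0.70 to 0.13. With TMM, 12.7% of features were called lower and 12.8% higher. Tead4 and Prdm14 still fell under TMM, by 2.17 (edgeR adjusted p = 0.00354) and 2.39 (edgeR adjusted p = 0.0115) on the log2 scale. Pou5f1 and Yap1 were then called higher, by 1.57 (SE 0.26, edgeR adjusted p = 5.59e-05) and 0.74 (SE 0.20, edgeR adjusted p = 0.00672). Relative to the shift of all genes, both were thus above the typical gene under TMM, while their amount per embryo did not pass the test under spike-in scaling. Sall4, Gata3, Sox2 and Nanog turned from a negative to a positive value under TMM without passing the test. Carm1 moved from 0.0020 to 0.94 under TMM (SE 0.41, edgeR adjusted p = 0.0922) and did not pass either.

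**Figure D3:**
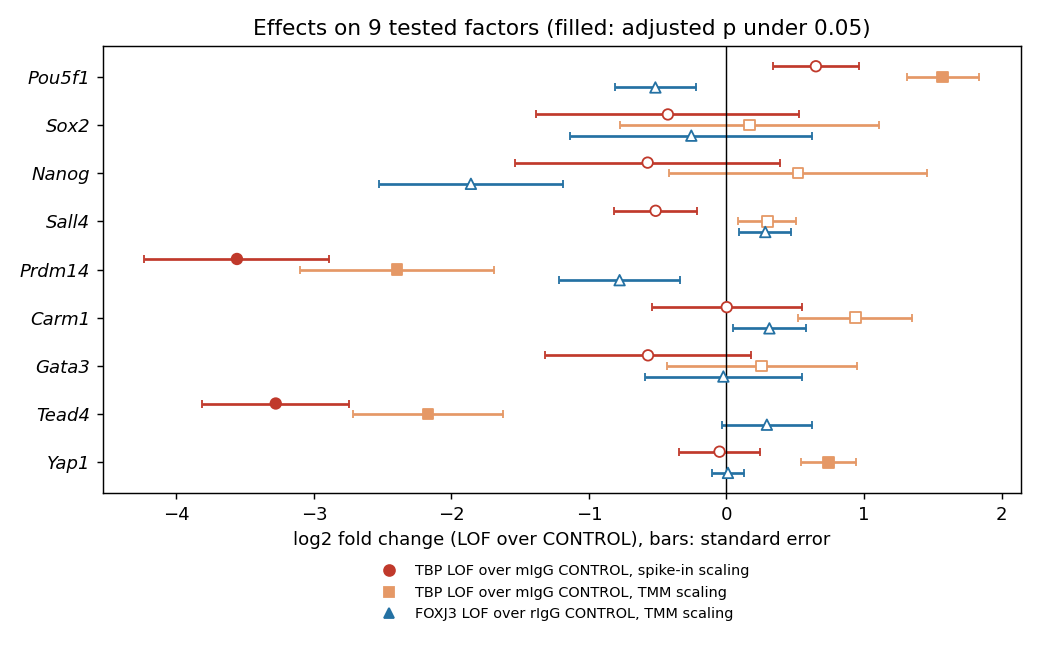
Log2 fold change (LOF over CONTROL) with its standard error for the 9 tested factors in TBP LOF under spike-in and TMM scaling and in FOXJ3 LOF, filled where the edgeR adjusted p was under 0.05. Tead4 and Prdm14 lie at -3.28 and -3.56 under spike-in scaling and at -2.17 and -2.39 under TMM, whereas Yap1 moves from -0.05 to 0.74.

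The comparison of FOXJ3 LOF with rIgG CONTROL asked the same of FOXJ3, a forkhead factor. No member passed the test, 0 of 9, by edgeR or by DESeq2. At an unadjusted p under 0.05, edgeR gave 1 member, Nanog, and 1115 of all 19517 features tested. After adjustment 0.0102% of these features were called, or 2, so the absence of called members is no result about the set. Members had log2 fold changes between -1.86 and 0.31.

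**Figure D4:**
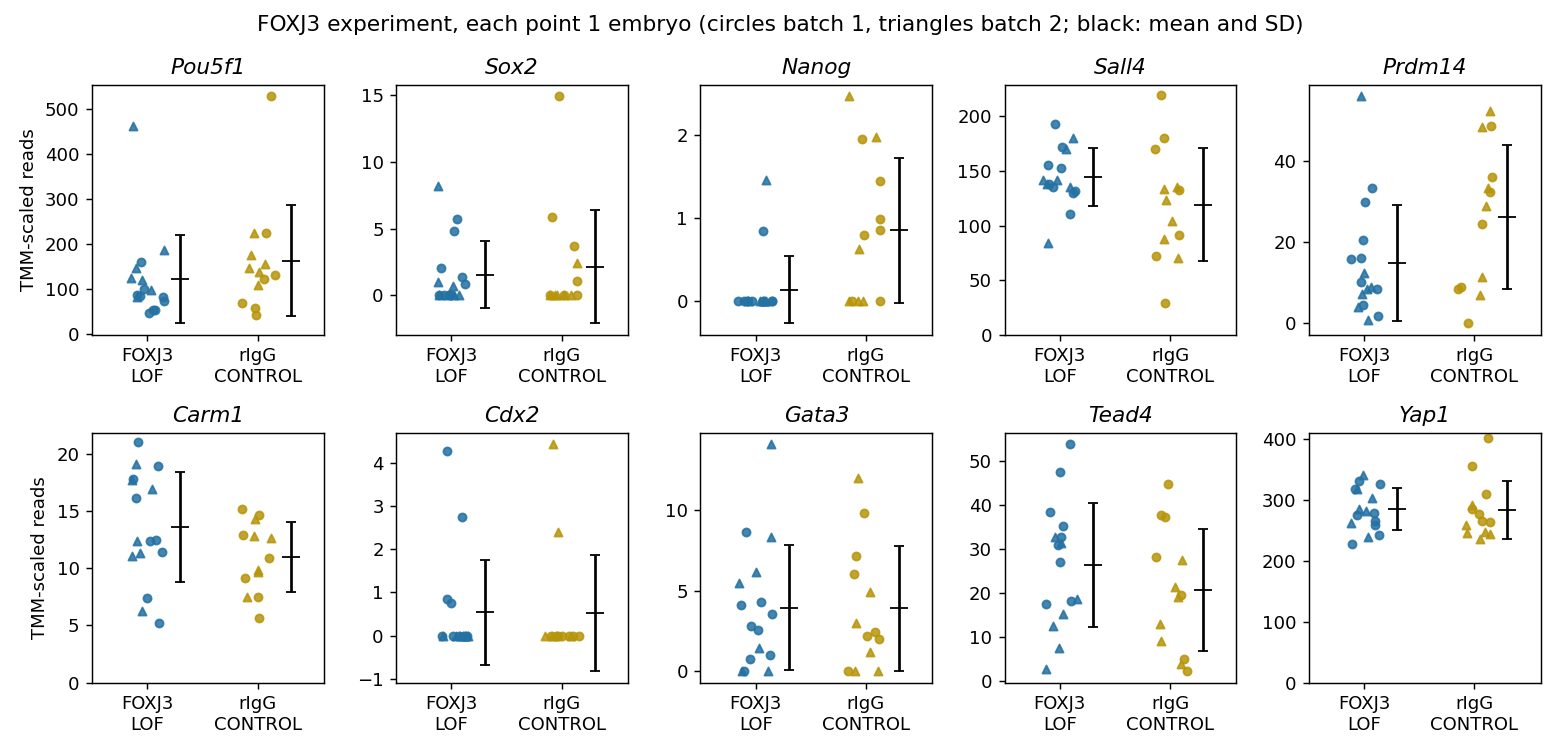
TMM-scaled reads of the 10 factors in each of 16 FOXJ3 LOF and 13 rIgG CONTROL embryos (circles batch 1, triangles batch 2), with mean and SD in black, on a linear axis of its own for each gene. The groups overlap in every gene, and Pou5f1 has 1 high embryo in each group, at 461 and 527 scaled reads.

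Nanog had reads in 2 of 16 FOXJ3 LOF and 8 of 13 rIgG CONTROL embryos, never more than 3 in an embryo. Its log2 fold change was -1.86 (SE 0.67, p = 0.00839, edgeR adjusted p = 0.765), with -2.22 in batch 1 and -1.49 in batch 2, and neither batch passed the test. It ranged from -2.51 to -1.65 with each embryo left out, the lowest without embryo 5 of batch 2, 1 of the 2 FOXJ3 LOF embryos with reads. Pou5f1 had 45.8, 90.9 and 461 TMM-scaled reads in FOXJ3 LOF and 41.8, 137 and 527 in rIgG CONTROL, and its groups overlapped. Its log2 fold change was -0.52 (SE 0.29, edgeR adjusted p = 0.904), with -1.07 in batch 1 and 0.12 in batch 2. Prdm14 had 0.920, 9.53 and 56.1 scaled reads in FOXJ3 LOF and 0, 28.9 and 52.4 in rIgG CONTROL. With overlapping groups its log2 fold change was -0.78 (SE 0.44, edgeR adjusted p = 0.904), and 13 of 16 FOXJ3 LOF embryos were below the CONTROL median.

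Tead4 had 2.73, 29.0 and 53.9 TMM-scaled reads in FOXJ3 LOF and 2.19, 19.5 and 44.8 in rIgG CONTROL, with overlapping groups (log2 fold change 0.29, SE 0.32, edgeR adjusted p = 0.961). Yap1 was the most even of the members, with 228, 281 and 342 scaled reads in FOXJ3 LOF and 237, 266 and 402 in rIgG CONTROL. Its log2 fold change was 0.011 (SE 0.12), and the approximate 95% interval from -0.22 to 0.24 was the narrowest of any member in either experiment. Sall4 had 83.7, 140 and 193 scaled reads in FOXJ3 LOF and 29.0, 123 and 219 in rIgG CONTROL, with 14 of 16 FOXJ3 LOF embryos above the CONTROL median (log2 fold change 0.28, SE 0.19, edgeR adjusted p = 0.916). Carm1 had a log2 fold change of 0.31 (SE 0.26, edgeR adjusted p = 0.943), and 7 of 16 FOXJ3 LOF embryos exceeded the highest CONTROL embryo. Gata3 and Sox2 had log2 fold changes of -0.023 (SE 0.57) and -0.26 (SE 0.88). Both differed in sign between batches, with -0.47 and 0.52 for Gata3 and -1.12 and 1.28 for Sox2 in batch 1 and batch 2. Cdx2 had reads in 4 of 16 FOXJ3 LOF embryos, all of batch 1, and in 2 of 13 rIgG CONTROL embryos, both of batch 2, and was not tested over both batches.

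Whether the response to TBP LOF differed from that to FOXJ3 LOF was tested in 1 fit of all 47 embryos under spike-in scaling. Tead4 differed by -3.76 on the log2 scale (SE 0.67, edgeR adjusted p = 1.23e-05) and Prdm14 by -2.80 (SE 0.86, edgeR adjusted p = 0.00892). The other 7 tested members did not pass, and 28.7% of all features did. Under TMM scaling Tead4 still differed, by -2.43 (edgeR adjusted p = 0.00476), whereas Prdm14 with -1.57 no longer passed (edgeR adjusted p = 0.198). Pou5f1 and Yap1 passed only under TMM among the fits tried, with 2.04 (edgeR adjusted p = 0.000657) and 0.73 (edgeR adjusted p = 0.00842). Over all 19657 features, 4104 were called in this test under TMM.

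Genes around the members were read from lists of the pathways. In TBP LOF their counts stand beside the 29.7% of all features called lower, the 1.34% called higher and the median of -0.70 over all genes, and the lists were not tested against these. This background depends on reads. Under filterByExpr, a stricter filter on low counts, 4269 of 8124 features were called lower, with a median of -0.90 over genes. The lists were not matched to the background by reads, and they were chosen with earlier results of these data known. In the pluripotency network, 11 of 19 tested genes fell and none rose, with a median log2 fold change of -1.66, below the median over all genes. The 3 with the smallest adjusted p were Dppa4 and Dppa2, partner proteins that prime genes for activation in early development, and Dppa5a, an RNA-binding protein of pluripotent cells. Dppa4 went from 486 ± 178 scaled reads in mIgG CONTROL to 106 ± 56.2 in TBP LOF (SD, n = 9 each, log2 fold change -2.20, edgeR adjusted p = 4.89e-07). Dppa5a went from 2187 ± 821 to 499 ± 257 (log2 fold change -2.13, edgeR adjusted p = 5.00e-07), and Dppa2 from 436 ± 161 to 88.0 ± 65.2 (log2 fold change -2.32, edgeR adjusted p = 5.28e-07). Under TMM scaling 7 genes of this list were called lower and 2 higher, beside 12.7% and 12.8% of all features.

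**Figure D5:**
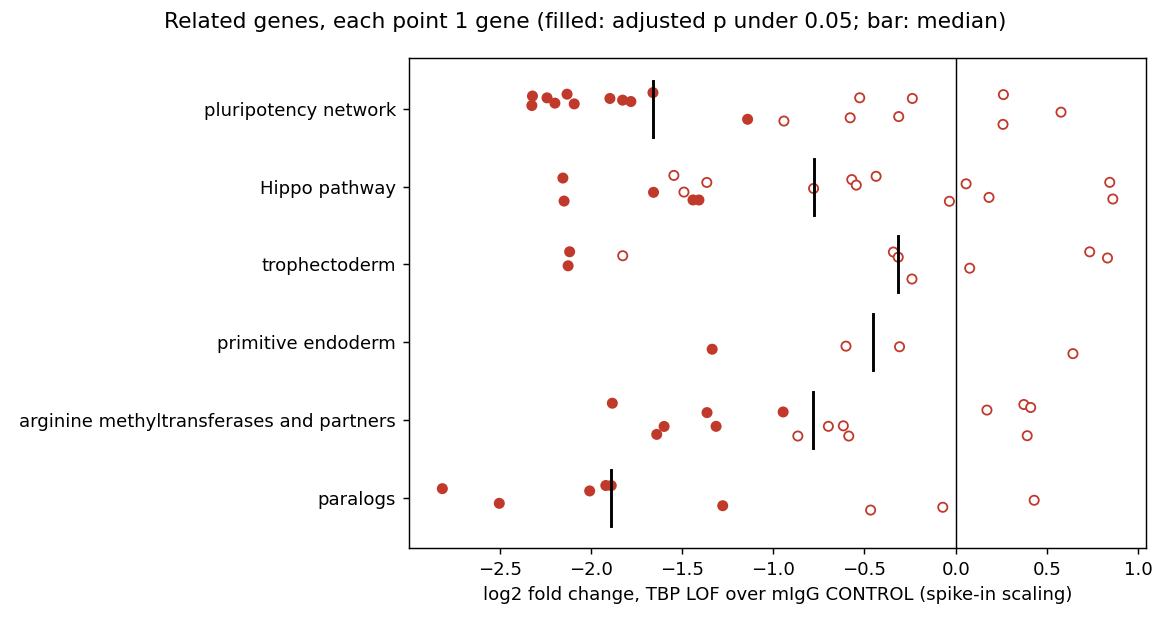
Log2 fold change in TBP LOF over mIgG CONTROL under spike-in scaling for the tested genes of 6 lists around the members (1 point per gene, filled where the edgeR adjusted p was under 0.05), with the list median as a bar. The called genes lie below 0 in every list, as do most called features of the whole comparison.

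In the Hippo pathway, 5 of 17 tested genes fell and none rose, with a median log2 fold change of -0.78, which is close to the 29.7% of all features called lower and to their median of -0.70 and is no result about the pathway. Wwtr1, which encodes TAZ, the paralog of YAP1, had 94.99 ± 47.3 scaled reads in mIgG CONTROL and 21.4 ± 8.83 in TBP LOF (log2 fold change -2.15, edgeR adjusted p = 3.31e-06). Nf2, an upstream activator of the pathway, went from 185 ± 63.6 to 70.0 ± 27.2 (log2 fold change -1.41, edgeR adjusted p = 0.000258), and Stk4, the kinase MST1, from 45.1 ± 17.9 to 14.6 ± 7.70 (log2 fold change -1.66, edgeR adjusted p = 0.000394). Each lay below the CONTROL median in 9 of 9 TBP LOF embryos. Under TMM scaling 2 genes of the pathway were called lower and 1 higher, beside 12.7% and 12.8% of all features. Nf2 no longer passed under TMM (edgeR adjusted p = 0.0550).

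Markers of the first lineages had counts near the 29.7% of all features called lower, which are no result about these lists. Of the trophectoderm list, 2 of 9 tested genes fell, Tfap2c, an AP-2 factor that is also found before the lineages part, and Id2, an inhibitor of helix-loop-helix factors. Tfap2c went from 248 ± 90.1 scaled reads to 57.4 ± 30.8 (log2 fold change -2.12, edgeR adjusted p = 1.27e-06) and Id2 from 37.4 ± 22.6 to 8.99 ± 12.4 (log2 fold change -2.12, edgeR adjusted p = 0.000809). The median over the tested genes of this list was -0.31. Under TMM scaling 1 gene was called lower and none higher, beside 12.7% and 12.8% of all features. Id2 no longer passed under TMM (edgeR adjusted p = 0.0551). Of the primitive endoderm list, 1 of 4 tested genes fell, Gata4, a zinc-finger factor of that lineage, from 77.5 ± 24.9 to 31.1 ± 16.6 (log2 fold change -1.33, edgeR adjusted p = 0.00127). The list had a median of -0.45, and under TMM scaling none of its genes was called.

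Among arginine methyltransferases and partners of CARM1 and PRDM14, 6 of 14 genes fell and none rose, with a median of -0.78, beside 29.7% of all features called lower and a median of -0.70. Prmt1, the main methyltransferase for asymmetric arginine dimethylation, went from 55.2 ± 24.9 to 14.96 ± 6.87 scaled reads (log2 fold change -1.88, edgeR adjusted p = 4.58e-05). Prmt5, which methylates arginine symmetrically, went from 112 ± 44.9 to 37.4 ± 29.9 (log2 fold change -1.60, edgeR adjusted p = 0.000902), and Cbfa2t2, a corepressor that binds PRDM14, from 64.4 ± 25.7 to 26.4 ± 10.97 (log2 fold change -1.31, edgeR adjusted p = 0.00191). With TMM scaling 1 gene of this list was called lower and 4 higher, beside 12.7% and 12.8% of all features. Prmt5 and Cbfa2t2 no longer passed under TMM (edgeR adjusted p = 0.108 and 0.193). Among paralogs of the members, 6 of 9 tested genes fell, with a median of -1.89, beside the same 29.7% and -0.70 over all features and genes. They were led by Prdm10, a zinc-finger relative of Prdm14 (log2 fold change -2.50, edgeR adjusted p = 6.71e-06), Gata1, the blood-lineage GATA factor (-1.89, edgeR adjusted p = 0.000144), and Pou6f1, a POU-domain factor (-2.01, edgeR adjusted p = 0.000239). Under TMM scaling 3 paralogs were called lower and none higher, beside 12.7% and 12.8% of all features. Paralogs that stand in the other lists were left out of this one, among them Tead1, Tead2, Tead3, Wwtr1, Gata2, Gata4, Gata6 and the Prmt genes. The counts and median of the paralogs therefore depend on how genes were split between lists.

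In FOXJ3 LOF, edgeR called no gene of these 6 lists, where medians lay between -0.20 and 0.15. The most read gene of each list had a log2 fold change of -0.29 (SE 0.16) for Dppa3, a maternal factor, 0.60 (SE 0.20) for Mob1a, a Hippo kinase cofactor, and 0.33 (SE 0.18) for Tfap2c. It was 0.025 (SE 0.20) for Gata4, 0.18 (SE 0.22) for Nono, an RNA-binding protein, and 0.083 (SE 0.29) for Gata1.

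Members with at least 20 reads on average were compared with 6539 protein-coding genes across the 47 embryos, after group and batch means were removed. The genes that varied most like Pou5f1 were Lmo1 (Pearson's r = 0.882) and Acd (0.881), and those most like Tead4 were Ptpn1 (0.838) and Ndufb7 (0.818). For Yap1 they were Strn (0.723) and Lsm14b (0.692), and for Sall4 Tet3 (0.716) and Zfp92 (0.680). Embryos differed in library depth, and any differences in stage were not measured, so these values describe likeness across embryos and carry no test. Pou5f1 had 1 far higher embryo in each group of the FOXJ3 experiment (527 and 461 TMM-scaled reads), and its values were not computed without them.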

How the data were processed

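Expression was measured in single late 2-cell embryos with Smart-seq+5′. The authors mapped 5′-end reads with STAR 2.7.11a to GRCm38 and counted them with TEcount per gene, ERCC transcript and TE family. The deposited values are expected counts (estimated counts) without normalization, all whole, so rounding changed nothing. Symbols and positions came from GENCODE M21. Embryos were kept with at least 500000 reads, 1000 genes, at most 10% mitochondrial and 15% ERCC reads, which left out 1 mIgG CONTROL and 1 FOXJ3 LOF embryo. No 2 embryos had identical counts. Subfamily rows (42) were added to their 6 TE families.

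Features with 1 read in at least 25% of embryos were tested with edgeR 4.0.16 (two-sided quasi-likelihood test, adjustment by Benjamini-Hochberg across all features tested, threshold 0.05), with standard errors derived from its F statistic. TBP embryos were scaled by the median of ratios over 42 ERCC transcripts, and FOXJ3 embryos by TMM with batch as a covariate. The difference of effects was fitted over 47 embryos with ERCC scaling and a mean for each group and batch. DESeq2 1.42.0, other scalings, other filters, each batch, each embryo left out, and a replicate block on embryo number were alternatives. The fit was also run on counts simulated from its own estimates, with changes only in features at or above the median count. That run says nothing about genes with few reads. Approximate 95% intervals are the estimate ± 1.96 SE. Counting error was taken from the mean read count, and amplified reads without molecular identifiers make it a lower limit.

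All 10 members are named in each comparison, and from each list the 3 called genes with the smallest adjusted p or, with none called, the most read gene. Members and lists were chosen with earlier results of these data known. RefSeq promoters of GRCm38.p6 were searched on both strands. Single TE insertion tables were not used here. R 4.3.3, limma 3.58.1, Python 3.11.15, scipy 1.17.1 and pandas 2.3.3 were used.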

Additional observations from a re-analysis of the deposited data

Results flagged for a closer look

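The difference between the effects of TBP LOF and FOXJ3 LOF passed its own test in Tead4, with -3.76 on the log2 scale (SE 0.67, edgeR adjusted p = 1.23e-05), and in Prdm14, with -2.80 (SE 0.86, edgeR adjusted p = 0.00892). Of all 19657 features, 28.7% passed the same test, so these calls are no result about the set of members. Under TMM scaling Prdm14 no longer passed (-1.57, edgeR adjusted p = 0.198), while Tead4 did (-2.43, edgeR adjusted p = 0.00476). Both experiments have their own CONTROL embryos and IgG, and FOXJ3 LOF values of these genes overlapped those of rIgG CONTROL.

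In 20 combinations of a member with a group of 9 embryos, 3 had an embryo far from the rest. Sox2 had 7.94 spike-in-scaled reads in TBP LOF embryo 8, where the next embryo had 3.62. Cdx2 had 0.732 scaled reads in TBP LOF embryo 9 and 1.685 in mIgG CONTROL embryo 1, where the others had 0, and each of these values is a single read. Chance flags about 1 in 20 groups of continuous values, a rate that does not hold for Sox2 or Cdx2. Sox2 had no read in 5 of 9 TBP LOF embryos, and in Cdx2 any lone read among embryos at 0 is singled out.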

How the results depend on the processing

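In TBP LOF, 4 of 9 tested members passed the threshold under TMM and 4 of 9 under median-of-ratios scaling. There Pou5f1 and Yap1 were called higher beside the fall of Tead4 and Prdm14. Under spike-in scaling 2 of 9 passed. Of all 19356 features, 4937 were called under TMM, 5045 under median-of-ratios scaling and 6017 under spike-in scaling. With filterByExpr 1 of 4 tested members passed, beside 4392 of 8124 features, and Prdm14 was then not tested. In FOXJ3 LOF no alternative called a member. In the difference test 3 passed under TMM (Tead4, Pou5f1 and Yap1), beside 4104 of all 19657 features. Leaving out each embryo, Tead4 and Prdm14 kept their calls in 18 of 18 fits, with -3.51 to -3.11 and -4.16 to -3.07.

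Values of members that did not pass turned sign as follows. In TBP LOF under TMM and median-of-ratios scaling they were 0.17 and 0.19 for Sox2, 0.52 and 0.58 for Nanog, 0.26 and 0.26 for Gata3, 0.30 and 0.31 for Sall4, and 0.74 and 0.77 for Yap1, of which only Yap1 passed. Carm1, at 0.0020, became -0.017 with DESeq2 and -0.041 with all embryos, and kept its sign at 0.94 under TMM. In the difference under TMM they were 0.13 for Sox2, 0.24 for Gata3, 0.021 for Sall4, 0.73 for Yap1 and 0.64 for Carm1. In FOXJ3 LOF, batch 2 alone gave 0.12 for Pou5f1, 1.28 for Sox2 and 0.52 for Gata3, and omitting the batch term gave 0.0045 for Gata3. Yap1, at 0.011, became -0.027 with median-of-ratios scaling, -0.024 with DESeq2, -0.0051 without a filter, -0.017 with filterByExpr, -0.011 with all embryos, -0.00013 with genes only and -0.16 in batch 1. Leaving out 1 embryo, Yap1 ranged from -0.19 to 0.065 and Carm1 from -0.14 to 0.13 in TBP LOF, and Sox2 from -0.92 to 0.45, Gata3 from -0.28 to 0.24 and Yap1 from -0.013 to 0.059 in FOXJ3 LOF. None of these passed in a left-out fit. The cause was not tested.

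Embryo numbers recur across groups but pair nothing in the labels, and deviations of same-numbered embryos had correlations from -0.07 to 0.17 over 7 pairs in the TBP experiment and from -0.29 to 0.31 over 12 pairs in the FOXJ3 experiment. With embryo number as a replicate block, the same 2 members passed in TBP LOF (Tead4 -4.15, Prdm14 -4.62) and none in FOXJ3 LOF. The block turned Sox2 to 0.25, Yap1 to 0.14 and Carm1 to -0.015 in TBP LOF, and Gata3 to 0.60 and Yap1 to -0.0038 in FOXJ3 LOF. Over all features it moved the count called in TBP LOF from 6017 to 5001.

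Reads per gene limited Sox2, Nanog, Cdx2 and Gata3, whose standard errors in TBP LOF were 0.75 to 0.97 where tested.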

Other observations

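Pou5f1 had 1 embryo in each group of the FOXJ3 experiment far above the others. Embryo 3 of batch 1 in rIgG CONTROL had 527 TMM-scaled reads, where the median of that group was 137, and embryo 7 of batch 2 in FOXJ3 LOF had 461, where the median was 90.9. Both embryos were also at an end of their group in other genes, as some embryo of a group always is. The rIgG CONTROL embryo had the lowest Tead4 (2.19, next 3.85), Prdm14 (0, next 6.92) and Tbp (95.2, next 114.5) of its group in TMM-scaled reads. It also had the highest Yap1 (402, next 356). The FOXJ3 LOF embryo had the lowest Tead4 (2.73, next 7.52) and the highest Sox2 (8.20, next 5.71) and Foxj3 (466.1, next 373) of its group. They belong to different batches and groups, and the log2 fold change of Pou5f1 in FOXJ3 LOF was -1.07 in batch 1 and 0.12 in batch 2. It ranged from -0.74 to -0.14 when each embryo was left out in turn, with none of the 29 fits passing the threshold.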
